A study of Mus musculus with 10 samples.

Results

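The genes described here are those of the interferon pathway and of antigen presentation in the mouse urinary bladder. They were chosen by a rule on gene names, with earlier results of these data known. It takes every probe named for an interferon, an interferon receptor, a JAK kinase, a STAT factor, a SOCS inhibitor or an interferon regulatory factor (IRF). It also takes RFX factors, H2 genes of the major histocompatibility complex (MHC), peptide transporter subunits and the common interferon-induced families. B2m, Ciita, Tapbp, Psmb8 and Psmb9 are included by name. The rule found 72 probes among the 5030 on the array, for 70 of the 4605 genes that a probe names alone. Ifi202b has 2 of the probes, and 1 further probe is named for H2-T9 and H2-T10 together. The Oas family, Cd74 and Jak1 were not analysed here.

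Each of the 10 arrays (Clontech Atlas mouse plastic 5 K, hybridized with radioactively labelled cDNA) held the RNA of 8 pooled bladders of female mice. PAR1-/- mice, which lack the thrombin receptor PAR1 (gene F2r) in every cell, were compared with WT mice (C57BL/6J, the background in which the PAR1-/- line had been enriched). The bladder of each mouse was instilled through a catheter, under anaesthesia, with LPS (E. coli lipopolysaccharide, 100 μg/ml), with SP (substance P, a peptide of sensory nerves) or with saline. The arrays of LPS and SP bladders are of 4 and 24 h and those of saline bladders of 24 h only. Every ratio at 4 h given here therefore compares with saline at 24 h. The study's methods describe mice given saline, SP or LPS and killed at 4 or at 24 h. The sample labels give 20 μM SP for the PAR1-/- arrays and 10 μM for the WT arrays, while the methods give 10 μM for all mice, so that genotype and labelled SP dose cannot be told apart. Every condition had 1 array. No age of the mice is given in the sources used here.

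Type I interferons are secreted when sensors such as the LPS receptor are triggered, and signal through the receptor chains Ifnar1 and Ifnar2, while interferon gamma signals through Ifngr1 and Ifngr2. The receptors activate JAK kinases, which phosphorylate STAT factors. STAT dimers bind the gamma-activated sequence (GAS), STAT2 complexes with Irf9 bind the interferon-stimulated response element (ISRE), and SOCS proteins switch the receptors off. Among the induced genes are those that cut peptides (the immunoproteasome subunits Psmb8 and Psmb9), pump them into the endoplasmic reticulum (Tap1, Tap2) and load them on MHC class I (Tapbp, the H2 heavy chains and B2m), and also Ciita, which with the RFX complex turns on MHC class II.

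The promoters of the 5 members that exceeded 3-fold of saline on any array are printed here because these genes are described most fully, with that of Tap1, which shares its upstream region with Psmb9. Each is the stretch of 250 bases before and 50 bases after a start listed for the gene among the RefSeq promoters (GRCm38.p6). It is read 5′ to 3′ on the strand of the gene. For Rfx5 and Gbp2b the start used lies downstream of the gene's first base, which is 94950689 for Rfx5 and 142594816 for Gbp2b. Letters in capitals match the GAS core TTCNNNGAA, which reads the same on both strands, or the ISRE core GAAANNGAAA on either strand (on the other strand TTTCNNTTTC). The capitals are letter matches and were not tested as binding sites.
Irf1, chr11:53769764-53770063, plus strand: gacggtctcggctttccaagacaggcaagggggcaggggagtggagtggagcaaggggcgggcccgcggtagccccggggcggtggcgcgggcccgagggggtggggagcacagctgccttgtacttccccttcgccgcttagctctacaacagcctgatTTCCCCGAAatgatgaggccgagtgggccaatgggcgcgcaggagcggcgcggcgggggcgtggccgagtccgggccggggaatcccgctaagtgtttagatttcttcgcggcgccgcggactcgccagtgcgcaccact
Irf2, chr8:46739495-46739794, plus strand: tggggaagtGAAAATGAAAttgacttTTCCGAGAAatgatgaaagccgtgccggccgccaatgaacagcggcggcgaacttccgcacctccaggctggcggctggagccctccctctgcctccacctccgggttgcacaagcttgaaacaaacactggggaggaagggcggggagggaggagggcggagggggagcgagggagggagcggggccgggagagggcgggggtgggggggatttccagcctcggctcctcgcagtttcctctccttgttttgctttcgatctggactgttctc
Gbp2b, chr3:142594597-142594896, plus strand: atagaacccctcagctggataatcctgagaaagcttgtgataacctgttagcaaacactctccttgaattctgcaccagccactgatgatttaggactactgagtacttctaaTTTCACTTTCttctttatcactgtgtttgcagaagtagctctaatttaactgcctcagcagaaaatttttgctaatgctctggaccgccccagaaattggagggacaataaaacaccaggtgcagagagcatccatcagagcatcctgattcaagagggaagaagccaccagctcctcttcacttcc
Jak3, chr8:71676133-71676432, plus strand: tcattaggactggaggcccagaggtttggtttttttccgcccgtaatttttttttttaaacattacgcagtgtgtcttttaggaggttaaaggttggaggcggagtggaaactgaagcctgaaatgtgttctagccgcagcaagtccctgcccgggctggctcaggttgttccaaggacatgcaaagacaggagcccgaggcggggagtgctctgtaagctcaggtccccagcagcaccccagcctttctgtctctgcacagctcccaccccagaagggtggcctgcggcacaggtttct
Rfx5, chr3:94953858-94954157, plus strand: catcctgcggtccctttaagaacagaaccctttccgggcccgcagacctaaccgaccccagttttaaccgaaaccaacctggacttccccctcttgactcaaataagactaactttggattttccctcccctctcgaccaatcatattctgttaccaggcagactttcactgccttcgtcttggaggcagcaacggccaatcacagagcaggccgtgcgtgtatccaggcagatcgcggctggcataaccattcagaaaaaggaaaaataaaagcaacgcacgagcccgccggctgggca
Tap1, chr17:34187306-34187605, plus strand: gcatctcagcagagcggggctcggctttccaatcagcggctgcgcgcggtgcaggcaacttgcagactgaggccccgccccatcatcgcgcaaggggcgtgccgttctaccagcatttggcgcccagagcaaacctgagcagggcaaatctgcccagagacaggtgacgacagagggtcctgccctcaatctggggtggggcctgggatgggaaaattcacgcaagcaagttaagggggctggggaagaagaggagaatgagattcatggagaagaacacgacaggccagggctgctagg

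The Irf1 window, the first of 2 in RefSeq, holds the GAS match TTCCCCGAA, 90 bases before the start. Irf2 holds both cores near the upstream end of its window, an ISRE match (GAAAATGAAA) and a GAS match (TTCCGAGAA), which do not overlap, and Gbp2b holds an ISRE match on the other strand (TTTCACTTTC). The windows of Jak3, Rfx5 and Tap1 hold neither. The Tap1 window shares 275 bases with that of Psmb9, which is read from the opposite strand. RefSeq promoters were matched for 55 member genes, in 65 windows. A GAS core was found in 12 of the 65 (18.5%) and in 8.3% of all 32851 promoter windows, and an ISRE core in 14 of the 65 (21.5%) and in 3.44% of all windows. Ifit1, Ifit3, Ifna11 and Socs1 carry 2 ISRE matches each, and none of them exceeded 3-fold. Ifna11 gave no ratio to saline in any comparison and Ifit3 only upper bounds. Ifit1 gave bounds and, in WT bladders 24 h after SP, a ratio of 1.28. Socs1 gave no ratio in WT bladders, and in PAR1-/- bladders ratios of 0.566 to 0.9 and an upper bound. Whether ratios go with the matches was not tested.

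What was deposited are scores that had been standardized probe by probe over the 10 arrays, and from these the whole-number spot intensities were recovered for 4953 of the 5030 probes and for all 72 members. Total intensity ran from 68150 to 262847 per array, and the median from 10 to 23, lowest on both saline arrays and on the WT SP array at 24 h. On the WT LPS array at 24 h 87.3% of the probes held the value 15 and the next value was 29, so that low members have no measured level there. The probe for F2r read 17, 18, 51 and 21 after LPS (4 and 24 h) and SP (4 and 24 h) and 11 after saline in PAR1-/- bladders, and 195, 15, 22 and 11 after challenge and 10 after saline in WT bladders. It passed the background on 3 PAR1-/- arrays and 1 WT array. The sources used here do not say whether it lies in the disrupted part of the gene, so it does not settle the genotype labels. Pairs of probes with 1 gene name correlated no better over the 10 arrays (median r = 0.14, 34 pairs) than 19994 random pairs of probes did (median r = 0.28). A single probe's value is therefore not a secure reading of its named gene. Whether the low r comes from probes at background was not tested. Of the tissue's own markers, all 3 urothelial probes (Krt18, Krt19, Upk2) and all 6 smooth muscle probes were above background on at least 1 array, at up to 34 for the urothelial ones.

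Many members stayed at background on every array. A probe counted as above background where it lay more than 3 SD over the background mode of its array, at thresholds from 12.3 to 31.4. This held on at least 1 array for 40 of the 72 members and on all 10 arrays for 7: Ifna7, Ifnab, Jak3, Irf1, Irf2, H2-Ab1 and H2-Oa. The 32 members that never passed are 44.4% of the list, beside 36.1% of all probes. In PAR1-/- bladders 24, 25, 23 and 21 members were above background after LPS (4 and 24 h) and SP (4 and 24 h), and 24 after saline. In WT bladders these numbers were 23, 7, 26 and 19, and 24 after saline. The number of 7 belongs to the LPS array at 24 h with the repeated value.

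**Figure D1:**
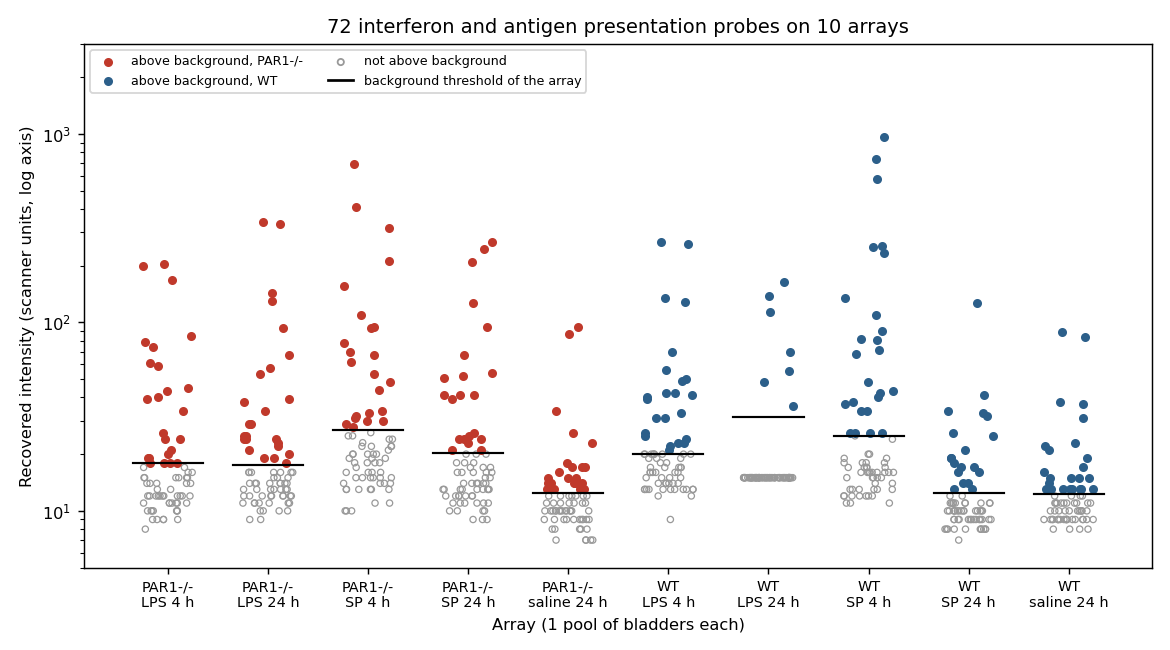
Recovered intensity (scanner units, log axis) of the 72 member probes on the 10 arrays, PAR1-/- left and WT right. Filled points lie above the background threshold of their array (black line), open grey points do not; on the WT LPS array at 24 h all but 7 members sit at 15.

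Of the members 6 lay beyond 3-fold of saline in at least 1 comparison: Jak3 and Irf2 above it in PAR1-/- bladders, Jak3, Irf1, Gbp2b and Rfx5 above it in WT bladders, and H2-Ab1 below it in WT bladders. For the ratios the arrays were scaled to each other by robust linear regression over 501 probes that passed the background on every array. A value at background was set to the threshold, which turns the ratio into a bound, and no ratio was formed where both values lay at the threshold or the bound fell on the other side of 1. Where 4 values after challenge follow each other, they are those of LPS (4 and 24 h) and then of SP (4 and 24 h). In PAR1-/- bladders the limit was exceeded after LPS by 1 of 26 members with a ratio or bound at 4 h (1.59% of all probes with one) and by 2 of 28 at 24 h (1.06%). After SP it was exceeded by 0 of 27 at 4 h (1.15%) and by 0 of 26 at 24 h (1.58%). In WT bladders the limit was exceeded after LPS by 2 of 32 members at 4 h (5.87%) and by 0 of 10 at 24 h (1.48%). After SP it was exceeded by 4 of 30 at 4 h (4.48%) and by 0 of 27 at 24 h (0.817%).

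In the other direction 1 member, H2-Ab1, lay more than 3-fold below saline, in WT bladders 24 h after SP (0.49% of all probes there). No member did so in the other comparisons, where 1.08%, 1.17%, 1.63% and 1.41% of all probes did in challenged PAR1-/- bladders, and 1.17%, 0.227% and 1.23% in WT bladders after LPS (4 and 24 h) and SP (4 h). Over at least 1 of the 4 comparisons of a genotype, 2 of 31 members exceeded 3-fold in PAR1-/- bladders (3.02% of all probes) and 4 of 35 in WT bladders (6.91%). None of the ratios has a p-value, since each sets 1 pool against 1 pool. The only spread at hand, that between the saline arrays of the 2 genotypes, was an SD of 0.47 on the log2 scale over 1122 probes, or 1.38-fold.

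The scaling carried the direction of many ratios. Without it 7, 7, 13 and 6 members exceeded 3-fold in PAR1-/- bladders after LPS (4 and 24 h) and SP (4 and 24 h), and 7, 1, 14 and 0 in WT bladders, with none more than 3-fold below. So did 24.1%, 21.9%, 64.1% and 29.7% of all probes on the PAR1-/- arrays and 24.3%, 11%, 51.2% and 0.708% on the WT arrays. The regression moved the median log2 intensity of the arrays by between -0.99 (PAR1-/-, SP at 4 h) and 0.79 (PAR1-/-, saline). The median ratio of the members after scaling was 0.742, 0.878, 0.601 and 0.765 in PAR1-/- bladders, beside 0.962, 1.03, 0.893 and 0.962 over all probes. In WT bladders it was 1, 0.91, 0.85 and 0.956, beside 1.07, 0.919, 0.932 and 1 over all probes.

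**Figure D2:**
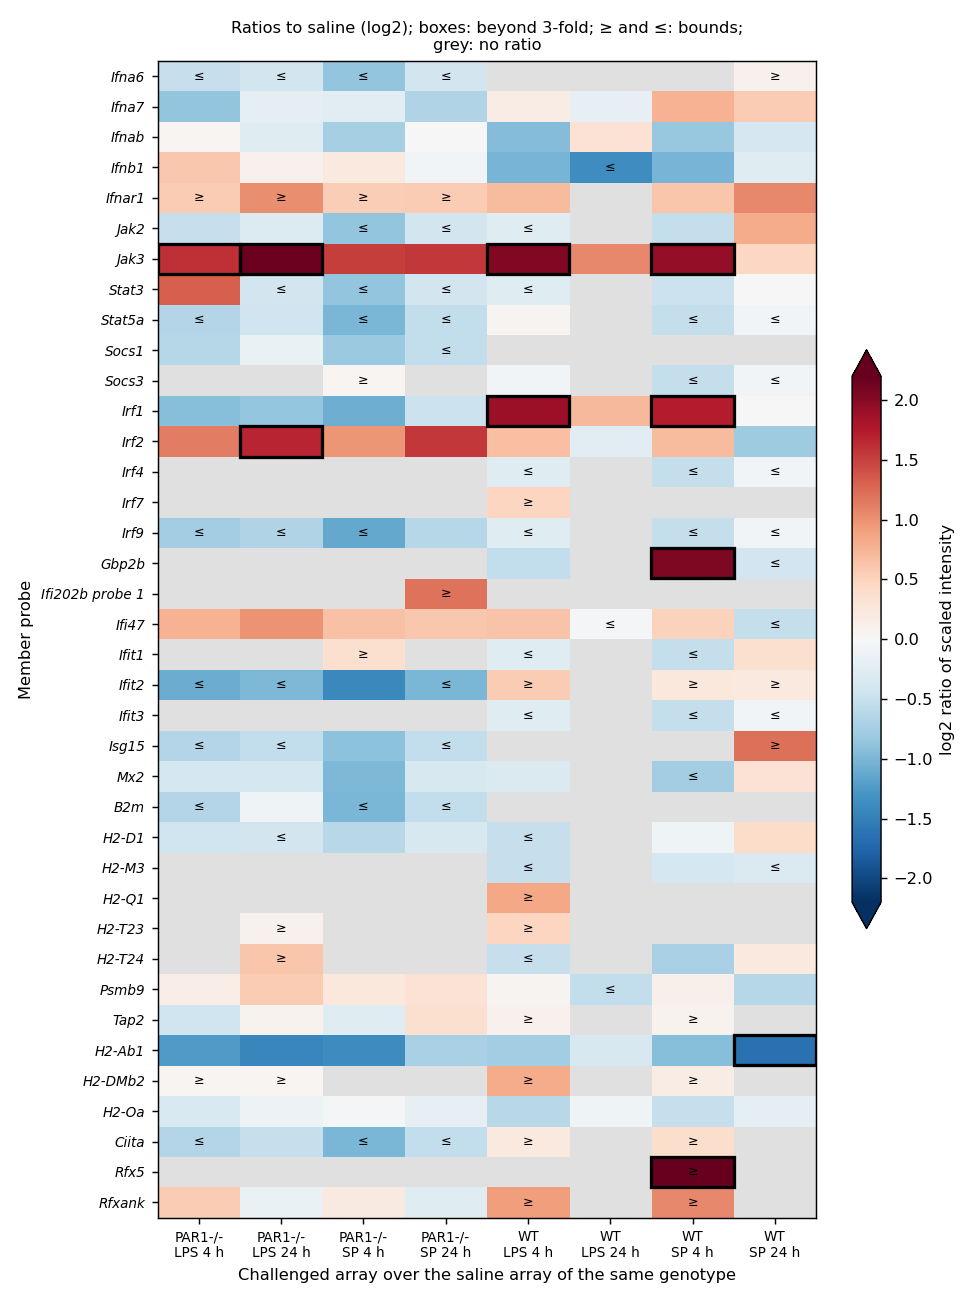
Log2 ratio of scaled intensity to the saline array of the same genotype, for the members with a ratio or bound in at least 1 of the 8 comparisons (PAR1-/- left, WT right). Black boxes mark values beyond 3-fold, the signs ≥ and ≤ mark bounds and grey cells hold no ratio; Jak3 is above saline in all 8 columns.

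Of the interferons themselves, none exceeded 3-fold. Ifna7, a type I interferon, read 198 and 341 after LPS at 4 and 24 h, 693 and 244 after SP at 4 and 24 h and 87 after saline in PAR1-/- bladders. The WT values were 260 and 163 after LPS, 968 and 126 after SP and 89 after saline. All challenged arrays were above saline before scaling. After scaling the ratios to saline were 0.549 to 0.856 in PAR1-/- bladders and 0.885 to 1.69 in WT bladders, and under a plain median shift between arrays 2 of the 4 PAR1-/- ratios lay above 1.

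Ifnb1, the interferon beta gene, read 61, 39, 93 and 39 after challenge and 17 after saline in PAR1-/- bladders, and 41, 15, 71 and 32 after challenge and 37 after saline in WT bladders. Its scaled ratios were 0.962 to 1.5 in PAR1-/- bladders, and at most 0.828 in WT bladders, where the saline value was the higher of the 2 saline arrays. Ifnab read 29 to 44 on the challenged PAR1-/- arrays and 17 after saline, and 17 to 48 on the challenged WT arrays and 21 after saline. Ifna6 was above background on 2 arrays and Ifna11 on none. The alpha interferons are near-identical in sequence, so their probes may share signal.

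Among the 4 receptor chains only Ifnar1 was measured above background. It read 39 and 53 after LPS at 4 and 24 h, 78 and 41 after SP at 4 and 24 h and 10 after saline in PAR1-/- bladders, and 42, 15, 68 and 26 after challenge and 14 after saline in WT bladders. The scaled ratio to saline was at least 1.45 to 2.03 on the PAR1-/- arrays, whose saline value lay at background, and 1.53 to 2.09 on the 3 WT arrays with a value. Ifnar2, Ifngr1 and Ifngr2 stayed between 8 and 16 on all arrays.

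Jak3, the kinase that couples to the common gamma chain of cytokine receptors and is best known in lymphocytes, was the member most often beyond 3-fold. It read 205 and 333 after LPS at 4 and 24 h, 411 and 210 after SP at 4 and 24 h and 23 after saline in PAR1-/- bladders. WT bladders gave 267 and 113 after LPS, 577 and 41 after SP and 31 after saline. Every challenged array lay above the saline array of its genotype, and the PAR1-/- and WT values overlapped. The scaled ratios were 3.03, 4.48, 2.87 and 2.95 in PAR1-/- bladders and 4.12, 2.07, 3.83 and 1.38 in WT bladders, after LPS (4 and 24 h) and SP (4 and 24 h). These stayed above 1 in all 8 comparisons without scaling, under a median shift and under quantile normalization.

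Jak3 also had the smallest p of all members for challenge against saline in limma, a log2 difference of 1.54 ± 0.39 (SE, 8 challenged against 2 saline arrays) with an adjusted p of 0.563. It was higher on 8 of 8 challenged arrays, and did not pass the correction over 1972 probes. Of the lymphocyte markers, 0 of 5 T cell and 0 of 6 B cell probes exceeded 3-fold. Over all probes 3.02% did in PAR1-/- and 6.91% in WT bladders, so counts of 0 among so few probes tell little. The T cell probes Cd3e and Cd8b1 and the B cell probes Cd79a and Blk were above background on no array. Summed intensity of the T cell probes was 75 to 120 on challenged and 57 on saline PAR1-/- arrays, and 62 to 103 on challenged and 67 on saline WT arrays. That of the B cell probes was 111 to 130 on challenged and 61 on saline PAR1-/- arrays, and 62 to 178 on challenged and 69 on saline WT arrays, before scaling as for the T cell probes. The B cell probe Cd22 had scaled ratios of at least 1.48 and 1.66 in PAR1-/- bladders 4 and 24 h after LPS. It was at least 1.86 there 24 h after SP, and at least 2.54 and 2.26 in WT bladders 4 h after LPS and SP. Some other probes of these lists lay below saline. The B cell probe Pax5 was at most 0.703, 0.757 and 0.546 in PAR1-/- bladders after LPS (4 and 24 h) and SP (4 h). In WT bladders 4 h after LPS and SP, Pax5 and Cd79b were each at most 0.649 and 0.541. The T cell probe Cd28 was 0.459 and 0.402 there, while Cd3g was at least 1.47 in WT bladders 24 h after SP. Whether the part of these cells in the tissue moved with Jak3 was not tested, and in bulk tissue more cells of a type cannot be told apart from more RNA per cell.

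Of the other kinases and factors, Stat3, which carries signals of the interleukin-6 family, read 74 in PAR1-/- bladders 4 h after LPS, against 13 after saline, and between 13 and 26 on all other arrays. Its scaled ratio there was 2.5. Jak2, which serves the interferon gamma receptor, lay between 13 and 25 on all arrays and Stat5a between 9 and 25. Stat2, Stat4 and Stat5b were above background on no array.

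The SOCS genes, the feedback brakes of JAK signalling, stayed low. Socs3 read 53 after SP at 4 h and 11 after saline in PAR1-/- bladders, a scaled ratio of at least 1.04, while WT bladders gave 24 at 4 h of SP and 13 after saline. Socs1 lay between 10 and 31, and Socs2 and Socs5 passed the background on no array.

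**Figure D3:**
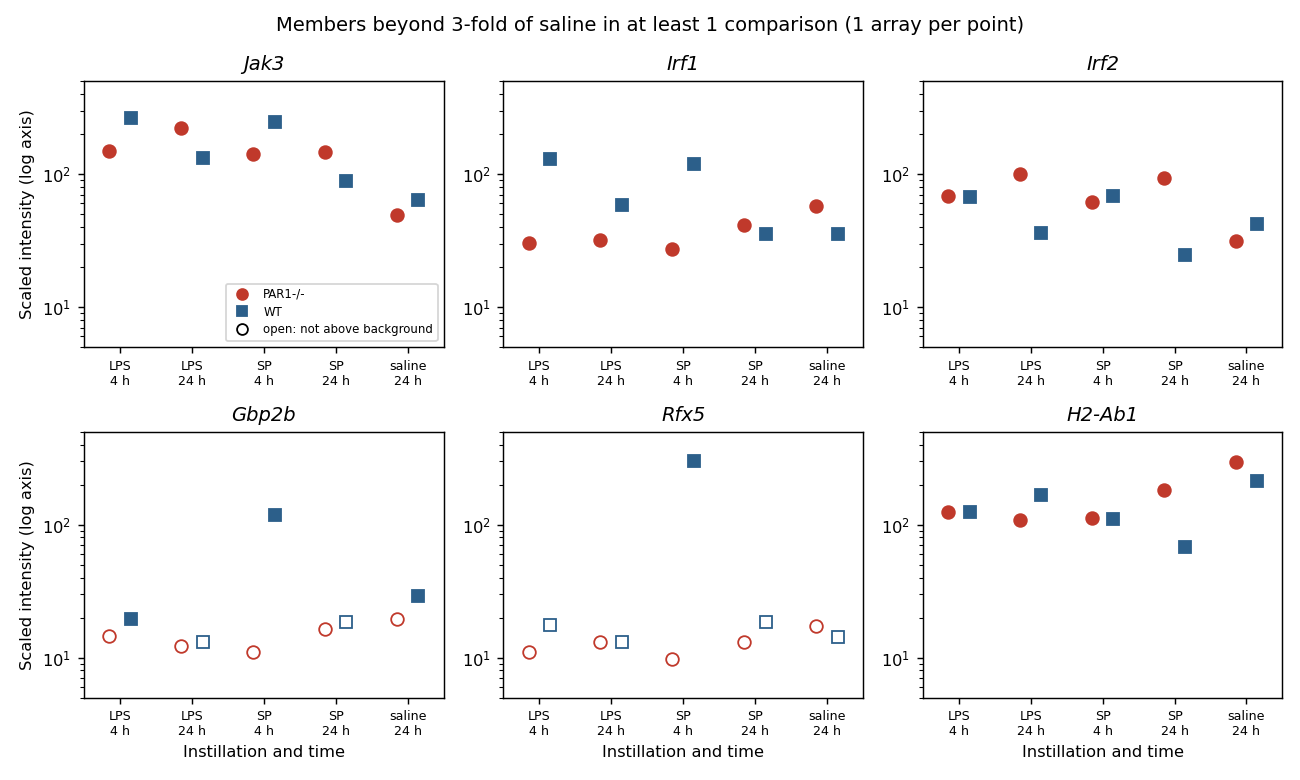
Scaled intensity (log axis) of the 6 members beyond 3-fold of saline in at least 1 comparison, by instillation and time, with PAR1-/- as red circles and WT as blue squares, 1 array each. Open symbols are not above background; Irf1 is high on the WT arrays of LPS and SP at 4 h, and Rfx5 and Gbp2b stand out only on the WT SP array at 4 h.

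Irf1, a transcription factor induced by interferon gamma that drives MHC class I, was high at 4 h in WT bladders. It read 34, 34, 62 and 51 after challenge and 26 after saline in PAR1-/- bladders. In WT bladders it read 134 and 55 after LPS at 4 and 24 h, 250 and 19 after SP at 4 and 24 h and 19 after saline. At 4 h the WT value was the higher one with either agent, and at 24 h after SP the PAR1-/- value was. The scaled ratios to saline were 0.522, 0.555, 0.474 and 0.716 in PAR1-/- bladders and 3.67, 1.63, 3.32 and 0.994 in WT bladders.

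The PAR1-/- ratios of Irf1 depend on scaling: they lay below 1 on all 4 arrays under regression, median shift and quantile normalization, and above 1 on all 4 without scaling, at up to 2.38. The WT ratios at 4 h were over 3 under each of these 4 treatments, at 3.18 to 7.05 after LPS and 3.11 to 13.2 after SP. Set against the mean of both saline arrays they were 2.88 and 2.6, and with 1 threshold common to all arrays at least 2.83 and 2.48. PAR1-/- saline stood higher than WT saline for Irf1, 1.63-fold after scaling. In limma the genotype difference was -0.83 ± 0.38 (SE, PAR1-/- minus WT, 5 arrays each, adjusted p = 0.459) and the interaction of genotype and challenge -1.91 ± 0.88 (adjusted p = 0.999). Irf1 therefore passed neither test, although its unadjusted p-values of 0.0382 and 0.0477 made it the one member with a p-value under 0.05 in either.

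Irf2, a relative of Irf1 that binds the same element and often opposes it, was high at 24 h in PAR1-/- bladders. It read 85 and 130 after LPS at 4 and 24 h, 156 and 126 after SP at 4 and 24 h and 16 after saline in PAR1-/- bladders, and 70, 36, 135 and 14 after challenge and 22 after saline in WT bladders. At 4 h the genotypes were close, and at 24 h the PAR1-/- values were the higher ones with both agents. The scaled ratios were 2.18, 3.19, 1.95 and 2.95 in PAR1-/- bladders and 1.59, 0.843, 1.62 and 0.58 in WT bladders. The PAR1-/- ratios were above 1 on all 4 arrays under every scaling. The limma genotype difference was 0.57 ± 0.35 (SE, 95% interval -0.15 to 1.29, adjusted p = 0.636).

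The other 6 IRF genes stayed near background. Irf7, the amplifier of type I interferon production, read 31 in WT bladders 4 h after LPS, against 10 after saline, a ratio of at least 1.39, and was not above background elsewhere. Irf9, the partner of STAT2, lay between 11 and 24. Irf3, Irf5 and Irf8 passed the background on no array, and Irf4 on 1.

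Of the 14 probes for interferon-induced effectors 6 were above background on no array, among them Mx1, which is defective in most laboratory strains, and Ifi204. Gbp2b, a guanylate-binding protein of the interferon gamma response, was the one effector beyond 3-fold. It read 11 to 22 after challenge and 11 after saline in PAR1-/- bladders, all at background. In WT bladders it read 254 after 4 h of SP and 11 to 21 on the other challenged arrays, with 16 after saline. The scaled ratio after 4 h of SP in WT bladders was 4.14, and its relative Gbp2, whose promoter window holds the same ISRE letters, read 13 on that array.

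Ifi47, an interferon gamma-induced GTPase, read 59, 67, 110 and 54 after LPS (4 and 24 h) and SP (4 and 24 h) and 15 after saline in PAR1-/- bladders. WT bladders gave 50, 15, 82 and 11 after challenge and 17 after saline. The scaled ratios of 1.51 to 1.97 in PAR1-/- bladders lay above saline under every scaling, and those at 4 h in WT bladders were 1.54 and 1.43. Its genotype difference in limma was 0.67 ± 0.34 (SE, adjusted p = 0.548).

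Mx2 lay between 15 and 30. Ifit1, which binds foreign RNA, read 67 in PAR1-/- bladders 4 h after SP and 12 to 20 on all other arrays. Ifit2 had scaled ratios at or below 0.502 on all 4 PAR1-/- arrays, 3 of them upper bounds, and lower bounds of 1.48, 1.17 and 1.16 on the WT arrays of LPS at 4 h and SP at 4 and 24 h. Without scaling the PAR1-/- ratios of Ifit2 were 0.889 to 1.56. Isg15, a ubiquitin-like protein, read 25 after SP at 24 h and 11 after saline in WT bladders, a ratio of at least 2.32. The 2 probes of Ifi202b disagreed: in PAR1-/- bladders 24 h after SP they read 67 and 13, and their correlation over the arrays was 0.16. Ifit1, Isg15, Ifit2, Irf7 and Ifi202b were named after their values were seen.

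The MHC class I chains lay close to background. B2m, the light chain shared by all class I molecules, read 14 and 25 after LPS at 4 and 24 h, 25 and 10 after SP at 4 and 24 h and 14 after saline in PAR1-/- bladders, and 20, 15, 26 and 11 after challenge and 9 after saline in WT bladders. It passed the background on 3 arrays. B2m ratios were at most 0.932 in PAR1-/- bladders, and none could be formed in WT bladders. H2-D1, a classical heavy chain, read 33 after SP at 4 h and 13 after saline in PAR1-/- bladders, a scaled ratio of 0.656, and 43 at 4 h of SP and 15 after saline in WT bladders, a scaled ratio of 0.943. H2-T24 and H2-M3 read 38 or less. H2-Q1 read 40 in WT bladders 4 h after LPS, against 10 after saline, a ratio of at least 1.8, and it was named after its value was seen. The heavy chain genes resemble each other closely, so that a probe may read more than its own gene.

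Of the 5 genes that supply peptides to class I, Psmb9 and Tap2 were above background on 9 and 7 arrays and Psmb8, Tap1 and Tapbp on none. Psmb9 read 43, 57, 95 and 52 after LPS (4 and 24 h) and SP (4 and 24 h) and 17 after saline in PAR1-/- bladders, and 49, 15, 90 and 16 after challenge and 23 after saline in WT bladders. Its scaled ratios were 1.1 to 1.47 in PAR1-/- bladders. In WT bladders they were 1.05 and 1.08 at 4 h and 0.644 after SP at 24 h. Under a median shift all 4 WT and 3 of the 4 PAR1-/- values lay below 1, and under quantile normalization all 4 WT values did.

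Tap1, whose promoter window overlaps that of Psmb9, read 8, 14, 14 and 12 after challenge and 7 after saline in PAR1-/- bladders, and 18, 15, 13 and 8 after challenge and 9 after saline in WT bladders. No value of Tap1 passed the background, so no ratio can be set beside those of Psmb9. Tap2, the other chain of the transporter, read 21, 29, 48 and 41 after challenge and 14 after saline in PAR1-/- bladders and 24, 15, 37 and 9 after challenge and 11 after saline in WT bladders. Its scaled ratios were 0.74, 1.06, 0.828 and 1.28 in PAR1-/- bladders. Tapbp, which holds class I open for peptide, lay between 9 and 26 and Psmb8 between 7 and 18.

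H2-Ab1, the beta chain of the MHC class II molecule I-A, was the one member that lay more than 3-fold below saline. It read 167 and 144 after LPS at 4 and 24 h, 317 and 267 after SP at 4 and 24 h and 95 after saline in PAR1-/- bladders. The WT values were 128 and 138 after LPS, 233 and 33 after SP and 84 after saline. The scaled ratios were 0.422, 0.369, 0.384 and 0.611 in PAR1-/- bladders and 0.586, 0.784, 0.521 and 0.32 in WT bladders.

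The direction of H2-Ab1 depends on scaling. It lay below saline on 8 of 8 challenged arrays under regression, median shift and quantile normalization, and above saline on 7 of 8 without scaling, at up to 3.34 times saline. The WT SP array at 24 h, whose median intensity of 10 equalled that of its saline array, gave a ratio below 1 either way, at 0.32 with scaling and 0.393 without it. The limma difference between challenged and saline arrays was -1.06 ± 0.35 (SE, adjusted p = 0.57).

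H2-Oa, part of the chaperone that restrains peptide loading on class II, read 79, 93, 211 and 94 after challenge and 34 after saline in PAR1-/- bladders and 56, 70, 110 and 34 after challenge and 38 after saline in WT bladders. Its scaled ratios, 0.79 to 0.982 in PAR1-/- bladders and 0.655 to 0.936 in WT bladders, lay below saline on 8 of 8 arrays, whereas without scaling 7 of 8 lay above it. H2-DMb2, a peptide exchange chain, read 39 and 40 after LPS and SP at 4 h and 10 after saline in WT bladders, ratios of at least 1.75 and 1.12. The other 5 class II probes passed the background on no array. They include H2-Eb1, H2-DMa, H2-Ob and H2-Ea, the last of which carries a promoter deletion in C57BL/6J mice and read 9 to 20.

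Rfx5, the DNA-binding subunit of the RFX complex that opens class II promoters, had the largest ratio of any member. It read 11, 12, 19 and 14 after challenge and 10 after saline in PAR1-/- bladders. In WT bladders it read 735 after 4 h of SP, 19 and 15 after 4 and 24 h of LPS, 11 after 24 h of SP and 9 after saline. It passed the background on 1 array alone, the WT one with 735, and the ratio to saline there was at least 14.4. Under 1 common threshold for all arrays it was at least 6.07. The class II gene H2-Ab1 was at 0.521 of saline on the same array after scaling and at 2.77 before it. H2-Oa was at 0.701 after scaling and 2.89 before it, and H2-DMb2 at 1.12 or more after scaling and 4 before it. Whether class II genes moved with Rfx5 was not tested.

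Ciita, the class II master regulator, read 15, 18, 23 and 20 after challenge and 14 after saline in PAR1-/- bladders, and 26, 15, 48 and 12 after challenge and 11 after saline in WT bladders. Its ratios lay at or below 0.705 in PAR1-/- bladders, all but that of LPS at 24 h being upper bounds. They were at least 1.16 and 1.31 in WT bladders 4 h after LPS and SP. Without scaling the 1 ratio formed in PAR1-/- bladders was 1.29, and under a median shift none could be formed in WT bladders. The contrast between genotypes thus depends on scaling and floor. Rfxank, a further RFX subunit, read 45, 24, 70 and 25 after challenge and 14 after saline in PAR1-/- bladders and 42, 15, 81 and 9 after challenge and 11 after saline in WT bladders. It was higher at 4 h than at 24 h with either agent in either genotype, a limma difference of -1.09 ± 0.36 (24 h minus 4 h, SE, 4 arrays at each time, adjusted p = 0.304). Rfx1, Rfx2 and H2-Ke6, a dehydrogenase gene named for its place in the MHC, stayed between 7 and 22.

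Across arrays no member passed a test. limma was fitted to the 1972 probes above background on at least 4 arrays, 27 of them members. For genotype, paired by condition, 0 of 27 members were called in either direction (0.0507% of all probes were higher and 0.0507% lower in PAR1-/- bladders), and 1 member had an unadjusted p under 0.05. For challenge against saline 0 were called (0% of all probes in each direction) and 2 had a p under 0.05. For time 0 were called (0.0507% of all probes higher and 0.152% lower at 24 h) and 1 had a p under 0.05. For LPS against SP 0 were called and for the interaction of genotype and challenge 0 were called (0% of all probes in each direction of both tests), with 0 and 1 members under 0.05.

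The median log2 difference of the tested members was 0.07 for genotype, -0.3 for challenge, -0.11 for time, 0.03 for stimulus and 0.03 for the interaction, beside 0.14, -0.05, -0.11, -0.05 and 0.12 over all tested probes. The 95% intervals for genotype were wide, running for Jak3 from -0.76 to 0.56 and for H2-Ab1 from -0.39 to 0.92. For challenge that of Irf2 ran from -0.19 to 1.6, so that a change could not be told from 0. The count of members called stayed at 0 in all 5 tests when the 24 h LPS arrays of both genotypes were left out.

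**Figure D4:**
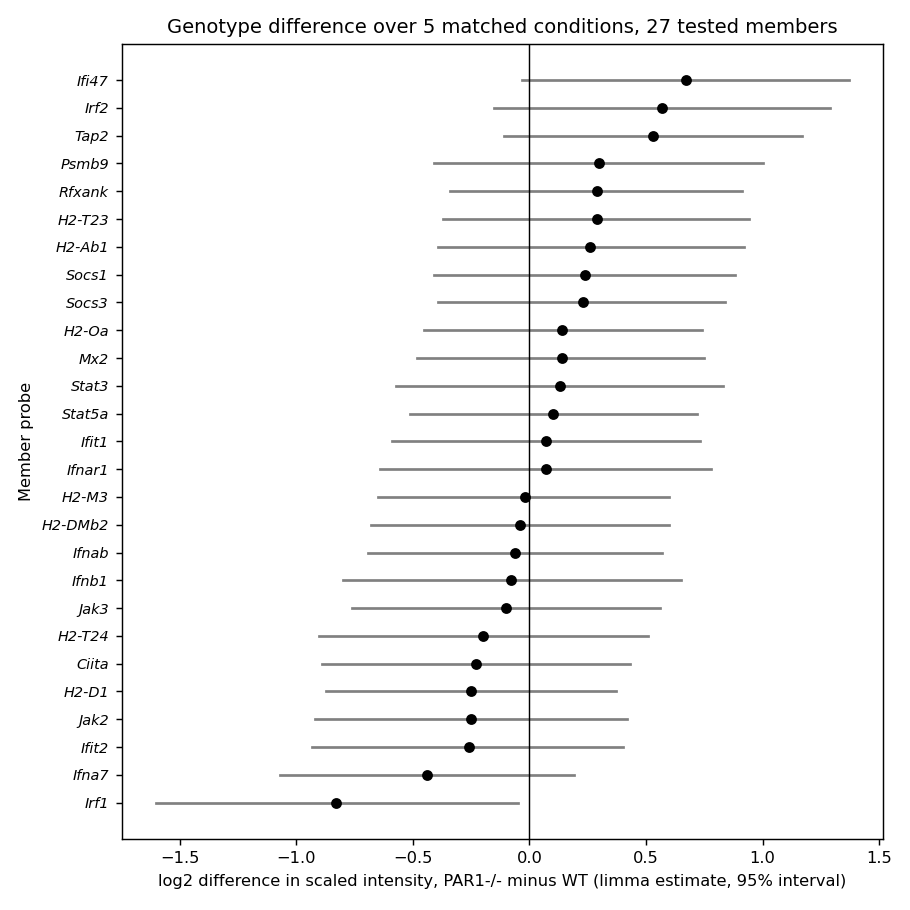
Log2 difference in scaled intensity, PAR1-/- minus WT, for the 27 members tested by limma over the 5 matched conditions. Points are estimates and bars 95% intervals; only that of Irf1 leaves out 0, before correction over the probes tested.

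Rfx5 and Gbp2b had the widest range of scaled log2 intensity among the members, 4.95 and 3.42. Over the 10 arrays and 4563 other named probes, those most like Rfx5 were Kcnj5 (r = 0.971), Mybl2 (r = 0.967) and Gbp2b (r = 0.948). Those most like Gbp2b were Rfx5, Cebpd (r = 0.944) and Srm (r = 0.943). All of them were highest on the WT SP array at 4 h, and all probes share the 10 arrays and their scaling. Rfx5, Kcnj5, Cebpd and Srm were above background on that 1 array only, Mybl2 on 2 arrays and Gbp2b on 3. Each r therefore rests mainly on the WT SP array at 4 h and does not show likeness over the other arrays.

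The other genes of the pathway were counted by list. Of 10 probes for receptor-linked kinases, adaptors and brakes, 7 for sensors and their kinases, 17 for interferon-stimulated genes and 17 for antigen processing, none exceeded 3-fold in PAR1-/- bladders (3.02% of all probes in at least 1 comparison), and 1, 0, 0 and 2 did in WT bladders (6.91%). The antigen processing gene Psmb10, a proteasome subunit, lay more than 3-fold below saline in WT bladders, at 0.234 after 4 h of LPS. None of them passed a limma test. The phosphatase gene Ptpn22 had ratios of 0.372 to 0.582 in PAR1-/- bladders and of 3.74, 3.48, 3.36 and 2.95 in WT bladders. Ptpn22 read 178, 255, 632 and 215 after challenge and 110 after saline in PAR1-/- bladders, and 280, 202, 586 and 88 after challenge and 35 after saline in WT bladders. Before scaling every challenged PAR1-/- value thus lay above saline, so the direction in PAR1-/- bladders depends on scaling. Nfyc, a subunit of the factor that joins RFX at class II promoters, had ratios of at least 1.57 to 1.93 in PAR1-/- bladders and of 3.56 in WT bladders 4 h after LPS. The lists were planned for counts only, and Psmb10, Ptpn22 and Nfyc were named after their values were seen.

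Among markers of immune cells, only the cytotoxic gene Prf1 exceeded 3-fold, at least 3.56 in WT bladders 4 h after LPS. It is 1 of 7 probes for NK and cytotoxic cells. Of these, Gzmb was at 0.676 on the same array and at 0.456 to 0.72 on the other challenged WT arrays. In PAR1-/- bladders Gzmb was at 0.832 to 1.2, and Gzma was above background on no array. None of the 6 macrophage and 3 dendritic cell probes exceeded 3-fold (3.02% of all probes in PAR1-/- and 6.91% in WT bladders). The macrophage probe Csf1r had a ratio of 0.322 in WT bladders 4 h after LPS. Summed intensity of the macrophage probes, before scaling, was 109 to 162 on challenged and 72 on saline PAR1-/- arrays, and 83 to 247 on challenged and 83 on saline WT arrays. The sum of 247 was on the WT SP array at 4 h, where Fcgr1 alone read 145 and the scaled ratio of Csf1r was 0.417. Cd68, Cd14 and Mrc1 were above background on no array. The part of such cells in the values above was not tested. Prf1, Gzmb, Csf1r and Fcgr1 were picked from the fixed marker lists after their values were seen. So were Cd22, Pax5, Cd79b, Cd28 and Cd3g beside Jak3.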

How the data were processed

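The values the authors deposited are scores, which the values themselves show to be standardized per probe over the 10 arrays (the authors quantified spots with AtlasImage 2.7, and the sources used here do not say how the scores were made). Whole-number intensities were searched up to 3000 from the scores (recovered for 4953 of 5030 probes, and tested on simulated data), taking the smallest numbers that match. Probes were named from the platform table (4633 with 1 symbol, 5 with several, 392 with none). An array's background mode was the peak of its kernel density and the SD was taken from values below it; on the WT LPS array at 24 h only 12 probes lie below the mode, so that threshold is weakly founded. Arrays were scaled by rlm (MASS 7.3.60.0.1, R 4.3.3), as the study's methods describe, and ratios follow its 3-fold limit. limma 3.58.1 was fitted with Benjamini-Hochberg adjustment over all tested probes. The number of arrays, 1 per condition, limits precision. No condition had a second pool, so p-values measure the spread left between arrays after the terms of each model. That spread mixes differences between conditions with differences between pools. The design foresaw intensities and holds for the recovered ones. Members described with 10 values were those beyond 3-fold, those past a test, the 5 with the highest mean (Ifna7, H2-Ab1, Jak3, H2-Oa, Irf2) and the core antigen presentation genes, with up to 3 examples a role, and the others by range and count; the text says which were named after their values were seen. Members and lists were chosen with earlier results of these data known. Alternatives changed the scaling, floor, background, fold limit, saline reference, filter, prior variance and arrays used; raising low values to the floor before limma was chosen after seeing the data.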

Additional observations from a re-analysis of the deposited data

How the results depend on the processing

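The counts of members beyond 3-fold depended on the processing, while each ratio of Jak3, Irf1, Irf2, Gbp2b, Rfx5 and H2-Ab1 beyond 3-fold kept its direction under all alternatives run. For LPS (4 and 24 h) and then SP (4 and 24 h), the counts in either direction were 1, 2, 0 and 0 in PAR1-/- bladders and 2, 0, 4 and 1 in WT bladders. Without scaling they were 7, 7, 13 and 6 in PAR1-/- bladders and 7, 1, 14 and 0 in WT bladders. A median shift gave 1 for PAR1-/- LPS at 4 h, a member below saline, with Jak3 now inside the limit at 2.96, 1 for PAR1-/- LPS at 24 h, 9 for PAR1-/- SP at 4 h, all of them lower, and 0 for WT SP at 24 h. Quantile normalization gave 1 for PAR1-/- SP at 24 h and 0 for WT SP at 24 h. A floor of 2 SD gave 1 for PAR1-/- SP at 24 h and 1 for WT LPS at 24 h. A common floor gave 0 and 1 for PAR1-/- LPS at 4 and 24 h, and 1 and 2 for WT LPS and SP at 4 h. With the background mode subtracted the counts were 4, 4, 6 and 4 in PAR1-/- bladders, and 6 for LPS at 4 h, 1 for LPS at 24 h and 4 for SP at 24 h in WT bladders. The mean of both saline arrays gave 0 and 1 for PAR1-/- LPS at 4 and 24 h and 1 for WT LPS at 4 h. A limit of 2-fold gave 5, 4, 8 and 4 in PAR1-/- bladders, and 2 for LPS at 24 h and 3 for SP at 24 h in WT bladders. The cause of these changes was not tested.

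The limma tests called 0 members under every alternative run, among them the deposited scores, the unfiltered probes and each LPS or SP condition left out in turn. The genotype test, which was paired by condition, also called 0 without that block and without the saline arrays. Low signal over background limits the list: 32 of 72 members gave no value above background, and on the WT LPS array at 24 h only 7 did.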

Other observations

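Immunoproteasome genes outside the list of members had unlike ratios 4 h after LPS. Psme1, a subunit of the activator cap, read 70 after LPS and 92 after SP at 4 h and 21 after saline in PAR1-/- bladders, with scaled ratios of 1.3 and 0.875. In WT bladders it read 182 after LPS and 237 after SP at 4 h and 22 after saline, with ratios of 4.21 and 2.65. Psmb10, a further inducible catalytic subunit, read 182 at 4 h of LPS and 48 after saline in PAR1-/- bladders, a ratio of 1.08, and 42 at 4 h of LPS and 70 after saline in WT bladders, a ratio of 0.234. Psmb9, a member, stood at 1.1 times saline in PAR1-/- bladders and 1.05 times saline in WT bladders then. The smooth muscle gene Acta2 read 152, 131, 29 and 151 after LPS (4 and 24 h) and SP (4 and 24 h) and 112 after saline in PAR1-/- bladders, with ratios of 0.316, 0.277, 0.0389 and 0.299. Before scaling, the PAR1-/- values of Acta2 lay above saline except that of SP at 4 h. In WT bladders Acta2 read 194, 136, 69 and 44 after challenge and 23 after saline, with ratios of 4.26, 3.67, 0.853 and 2.14. Other smooth muscle probes differed from Acta2. In PAR1-/- bladders 4 h after LPS Myh11 was at least 2.4 and Tagln at least 1.1. In WT bladders 4 h after LPS Smtn was 0.96, Tagln 0.875, Cnn1 at most 0.762 and Myh11 at least 2.68. These genes were named after their values were seen, each value is of 1 array, and none of them passed a limma test.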
